A study of Homo sapiens with 24 samples.

Results

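Panc1 cells carrying shIRAK4 were compared directly with Panc1 cells carrying shIRAK1, with 2 arrays a group and no scramble array in the contrast. Panc1 is an established human pancreatic ductal carcinoma line. The arrays were chosen by their source label alone, which makes 4 of the 24 arrays of the series. Genes were chosen by detection, which sets a gene's signal against the negative controls of its array. A gene was kept if its detection p was below 0.01 on both arrays of at least 1 of the 2 groups, which held for 10232 of the 34595 rows of the deposited table. Of these, 8932 were detected in both groups, 702 in shIRAK4 cells only and 598 in shIRAK1 cells only.

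Both groups were grown in RPMI with serum and passed through 2 rounds of retroviral infection. The first virus carried the hairpin named in the label in a puromycin vector, and cells were kept in puromycin at 1 ug/mL for 48 h. The second virus, with a neomycin marker and GFP, carried a scramble sequence in both groups, and cells were kept in geneticin at 500 ug/mL for 4 days. No label tells if the arrays numbered 1 and 2 came from separate infections, so the spread between arrays may be technical, and 2 arrays a group limit the precision. The p-values and SE rest on a spread between arrays estimated over all 12 groups of the series. Most of those groups varied less than these 2, so p-values and SE can understate the spread of the arrays compared. Other Panc1 groups of 2 arrays served for position only: cells with shIRAK1 and then shIRAK4 (shIRAK1+4), cells with scramble in both viruses, and DMSO-treated cells. The same contrast in Capan1, another pancreatic cancer line, gave 4 further arrays.

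IRAK4 and IRAK1 are serine/threonine kinases that act in order below Toll-like and interleukin-1 receptors. The receptor recruits MYD88, IRAK4 joins it in the Myddosome, and IRAK1 is phosphorylated and passes the signal to TRAF6, TAK1 and the IKK complex, which frees NF-kB to enter the nucleus. NF-kB then drives chemokines, its own inhibitors and survival genes, and pancreatic carcinoma cells are known for high activity of this pathway.

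Between 10015 and 12090 genes were detected on an array of the series. The 4 arrays did not pair by hairpin. Over 7125 genes detected on all 24 arrays, shIRAK4 replicate 1 correlated with shIRAK1 replicate 1 at r = 0.991, above its correlation of 0.979 with its own partner. The shIRAK1 arrays correlated with each other at 0.985. shIRAK4 replicate 2 was closest to the shIRAK1+4 arrays, with r of 0.988 to each. Scramble replicates reached 0.995 and so did those of shIRAK1+4. These r values describe single arrays that share a line, a platform and a normalization. The root mean square SD between the 2 arrays of a group was 0.279 in shIRAK4 cells and 0.241 in shIRAK1 cells, against 0.133 in shIRAK1+4 cells and 0.138 in scramble cells, on the log2 scale.

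Levels of interferon-stimulated genes went with the replicate number. Of 22 tested genes of that list, 21 were higher on replicate 1 than on replicate 2 in both groups, with a median gap of 1.38 in shIRAK4 cells and 1.32 in shIRAK1 cells. MX1, a GTPase that blocks viruses, had levels of 10.38 and 6.73 in shIRAK4 cells, against 9.69 and 5.67 in shIRAK1 cells. IFIT1, which binds viral RNA, had 9.05 and 6.85 in shIRAK4 cells, against 8.90 and 6.23 in shIRAK1 cells. The replicate number separated these values and the hairpin did not. HLA class I and peptide loading genes followed, with 15 of 16 higher on replicate 1 in both groups and median gaps of 0.62 in shIRAK4 cells and 0.50 in shIRAK1 cells. Over all tested genes 2966 of 10232 were higher on replicate 1 in both groups and the median gaps were -0.02 and -0.02. The interferon list had median gaps of 0.25 in shIRAK1+4 cells and -0.09 in scramble cells. No interferon-stimulated or HLA class I gene passed the test between the hairpins, and the part of this replicate gap in other differences was not tested.

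**Figure D1:**
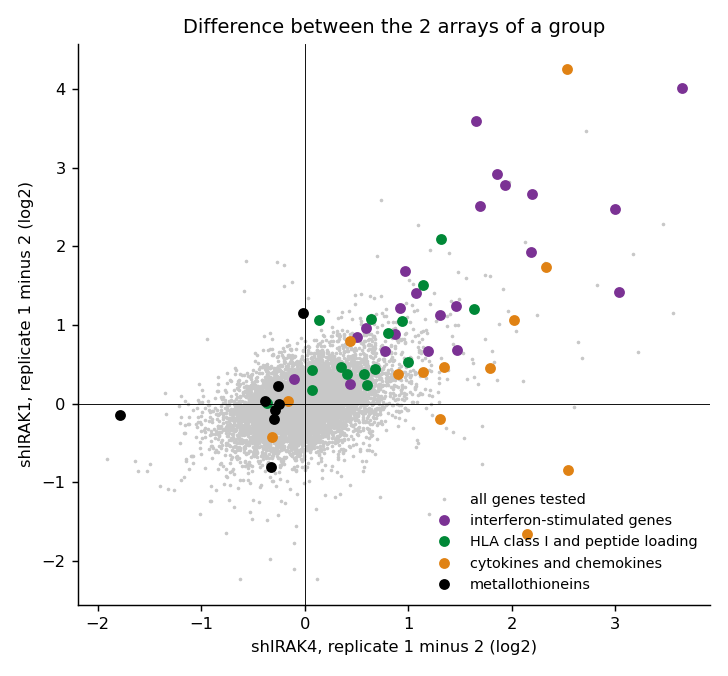
Difference between replicate 1 and replicate 2 of shIRAK4 cells (x axis) and of shIRAK1 cells (y axis), in log2 units, 1 point a gene. Interferon-stimulated genes and HLA class I genes lie in the upper right, where replicate 1 was higher in both groups (21 of 22 and 15 of 16 genes), and metallothioneins do not.

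The targeted genes check the labels. IRAK1 had log2 levels of 11.53 and 11.97 in shIRAK4 cells, against 8.32 and 9.57 in shIRAK1 cells. The groups were well apart, and the shIRAK1 array numbered 1 was the lowest. IRAK1 was higher in shIRAK4 cells by 2.81 ± 0.29 (log2 difference ± SE), which passed limma's test (adjusted p = 9.44e-05). Scramble cells had 11.30 and 11.53, close to shIRAK4 cells, and shIRAK1+4 cells had 8.36 and 8.65, close to shIRAK1 cells.

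IRAK4 lay near the detection limit. It was not detected on either shIRAK4 array (levels 5.28 and 5.31) and was detected on both shIRAK1 arrays (5.91 and 6.01). The difference was -0.66 ± 0.14 (adjusted p = 0.0287 by limma), and measured against the detection limit IRAK4 was at least 1.27-fold lower in shIRAK4 cells. It was also below detection in shIRAK1+4 cells (5.25 and 5.30) and in scramble cells (5.44 and 5.54), so this row checks the shIRAK4 label only weakly. Without shIRAK4 replicate 1 the adjusted p was 0.0536, without shIRAK4 replicate 2 it was 0.096 and without shIRAK1 replicate 2 it was 0.161, and under median scaling it was 0.738. The size rested on the background correction. The difference was -1.64 with the series matrix values, -1.51 with background from the middle of the controls, -1.11 without background correction and -0.07 with background from all rows, and it passed in each of these. In a bulk sample fewer cells with a transcript and less of it per cell cannot be told apart.

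Beyond the targets, few genes separated the hairpins. In the fit with one spread shared by all 12 groups, 106 of 10232 genes passed an adjusted p of 0.05, which is 1.04%. Of these 69 were higher in shIRAK4 cells (0.674%) and 37 lower (0.362%). Among genes detected in both groups 89 of 8932 passed, 60 higher and 29 lower. The other 17 were detected in only 1 group, and such genes can enter the test through the group where they are high, so their count and their p-values are no support. Among the genes named here MT1M, CD24 and ADAP2 passed the filter through shIRAK4 cells alone, where they were higher, and IRAK4, BIRC7 and ABCG2 through shIRAK1 cells alone, where they were higher. GPR56 passed through shIRAK4 cells alone, where it was lower. An unadjusted p under 0.05 was reached by 1250 genes. Higher genes made up 65.1% of the calls, and 81.8% under median scaling. All 106 had groups that did not overlap, as did 35.1% of all tested genes, and the median difference over all genes was 0.0005 (quartiles -0.14 and 0.14).

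The count depended on the arrays in the fit. With the spread estimated from the 4 arrays alone, limma called 0 genes (561 at an unadjusted p under 0.05), and with the Panc1 arrays that carry a hairpin or scramble it called 0 as well (1095 at an unadjusted p under 0.05). Leaving out shIRAK4 replicate 1 gave 309 calls, shIRAK1 replicate 1 gave 192, shIRAK4 replicate 2 gave 70 and shIRAK1 replicate 2 gave 76. The split by direction moved as well. Without shIRAK4 replicate 1 there were 149 higher and 160 lower genes, and without replicate 1 of both groups 143 higher and 143 lower. Without shIRAK4 replicate 2 there were 58 higher and 12 lower genes.

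**Figure D2:**
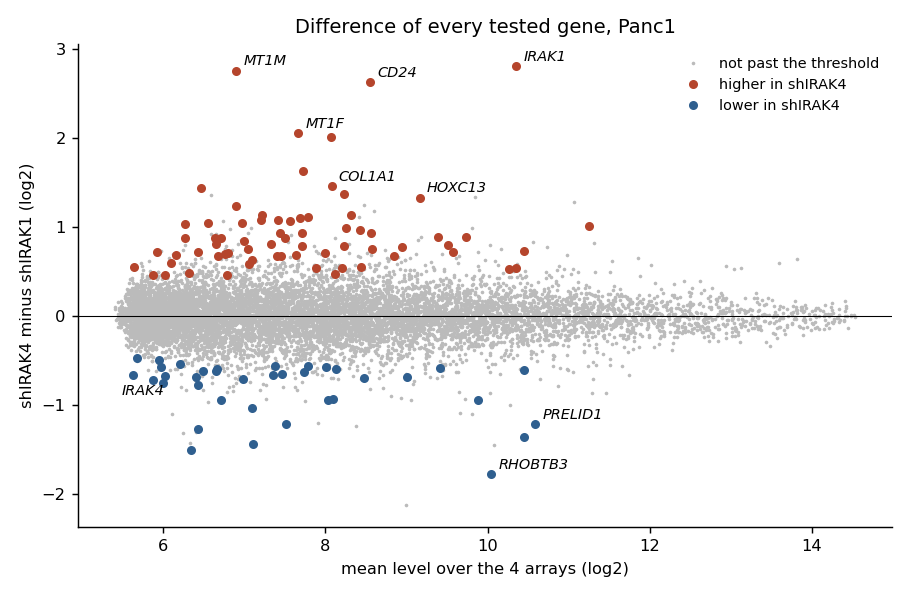
Difference of each of the 10232 tested genes (shIRAK4 minus shIRAK1, log2) against its mean level over the 4 arrays. Genes past the adjusted p of 0.05 are coloured by direction (69 higher, 37 lower in shIRAK4 cells). IRAK1 lies at 2.81 and RHOBTB3 at -1.78.

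Of the 12 largest rises, 6 held with any 1 array left out. MT1M, a metallothionein that binds zinc and copper, had levels of 7.39 and 9.17 in shIRAK4 cells, against 5.45 and 5.59 in shIRAK1 cells, where it was not detected. Neither scramble nor shIRAK1+4 cells had it above detection. The difference was 2.75 ± 0.33 (adjusted p = 0.000251), and against the detection limit MT1M was at least 6.14-fold higher in shIRAK4 cells. The size rested on replicate 2: without it the difference was 1.86 and the bound 3.31-fold, and without shIRAK4 replicate 1 the difference was 3.64. MT1M passed the filter through shIRAK4 cells alone, so its p and its call without single arrays are a description. COL1A1, the alpha 1 chain of type I collagen, had 9.11 and 8.50 in shIRAK4 cells, against 7.27 and 7.43 in shIRAK1 cells (difference 1.45 ± 0.17, adjusted p = 0.000251). KIF1A, a kinesin of axonal transport, had 9.04 and 8.78 in shIRAK4 cells, against 7.28 and 7.82 in shIRAK1 cells (difference 1.36 ± 0.14, adjusted p = 9.44e-05). Scramble cells had 9.89 and 9.87 and shIRAK1+4 cells 9.08 and 9.22, so for KIF1A the shIRAK1 cells were the low group. These genes were named on condition that the groups did not overlap, so both shIRAK4 arrays stood above both shIRAK1 arrays for each. SLC4A11, a membrane transporter of the corneal endothelium, had 8.48 and 9.67 in shIRAK4 cells, against 6.58 and 7.55 in shIRAK1 cells (difference 2.01 ± 0.32, adjusted p = 0.00463). HOXC13, a homeobox factor of hair and nail, had 9.70 and 9.96 in shIRAK4 cells, against 8.80 and 8.20 in shIRAK1 cells (difference 1.33 ± 0.17, adjusted p = 0.000556). Scramble cells lay below both groups in COL1A1, SLC4A11 and HOXC13. IRAK1, MT1M, SLC4A11, COL1A1, KIF1A and HOXC13 stayed past the threshold with any 1 of the 4 arrays left out.

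The other named rises lost the call when a particular array was left out. CD24, a glycosylated surface protein, had 10.23 and 9.49 in shIRAK4 cells, against 8.54 and 5.94 in shIRAK1 cells, a wide gap within shIRAK1 (difference 2.62 ± 0.51, adjusted p = 0.0186, and 0.0642 without shIRAK1 replicate 2 and 0.0623 without shIRAK4 replicate 1). Its difference was 1.33 without shIRAK1 replicate 2 and 3.92 without shIRAK1 replicate 1. Its row behaves as several probes averaged, as did 21 of the 106 called, and 12 of the 106 have no gene name. NKX6-2, a homeobox factor, had 7.73 and 9.34 in shIRAK4 cells, against 6.48 and 7.34 in shIRAK1 cells (difference 1.63 ± 0.33, adjusted p = 0.0256, and 0.128 with a difference of 0.82 without shIRAK4 replicate 2 and 0.122 without shIRAK1 replicate 1). ADAP2, a GTPase-activating protein for ARF proteins, had 7.36 and 7.01 in shIRAK4 cells, against 5.90 and 5.59 in shIRAK1 cells (difference 1.44 ± 0.27, adjusted p = 0.0177, and 0.118 without shIRAK1 replicate 2 and 0.0519 without shIRAK4 replicate 1). By the same condition the shIRAK4 arrays were the higher in all of these. CYGB, the oxygen-binding cytoglobin, had 7.06 and 7.97 in shIRAK4 cells, against 5.67 and 6.90 in shIRAK1 cells, and rose by 1.23 ± 0.29 (adjusted p = 0.0498, and 0.324 without shIRAK4 replicate 2 and 0.231 with a difference of 0.61 without shIRAK1 replicate 1). GJB2, the gap junction protein connexin 26, had 7.79 on both shIRAK4 arrays, against 6.51 and 6.80 in shIRAK1 cells, a rise of 1.14 ± 0.24 (adjusted p = 0.0334, and 0.0536 to 0.116 without any 1 array).

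Among the 37 falls, BIRC7, the apoptosis inhibitor livin, had 5.75 and 5.42 in shIRAK4 cells, against 7.54 and 6.66 in shIRAK1 cells (difference -1.51 ± 0.19, adjusted p = 0.000416). PROSC, now PLPBP, a pyridoxal phosphate-binding protein, had 6.84 and 5.93 in shIRAK4 cells, against 7.86 and 7.80 in shIRAK1 cells (difference -1.44 ± 0.23, adjusted p = 0.00494). Both falls held with any 1 array left out, which for BIRC7 is a description, since it passed the filter through shIRAK1 cells alone. BIRC7 was also low in scramble cells (5.35 and 5.37). PRELID1, a mitochondrial phosphatidic acid carrier, had 10.20 and 9.75 in shIRAK4 cells, against 11.06 and 11.33 in shIRAK1 cells (difference -1.22 ± 0.20, adjusted p = 0.00494, and 0.0603 without shIRAK4 replicate 2). The row LOC728666, which RefSeq lists as its pseudogene PRELID1P1, had a difference of -1.37 ± 0.16, and the array may not separate it from PRELID1.

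RHOBTB3 had 9.97 and 8.34 in shIRAK4 cells, against 11.19 and 10.68 in shIRAK1 cells (difference -1.78 ± 0.35, adjusted p = 0.0186, and 0.111 without shIRAK4 replicate 2 and 0.0831 without shIRAK1 replicate 1). Without shIRAK4 replicate 2 its difference was -0.96, and without shIRAK4 replicate 1 it was -2.60. GPR56, the adhesion receptor now named ADGRG1, fell by 1.21 ± 0.24 (adjusted p = 0.0186, and 0.15 without shIRAK4 replicate 2 and 0.189 with a difference of -0.78 without shIRAK1 replicate 2). GGA2, a clathrin adaptor of the Golgi, fell by 1.04 ± 0.21 (adjusted p = 0.0235, and 0.122 without shIRAK4 replicate 2, with a difference of -0.54, and 0.123 without shIRAK1 replicate 2). On all of these genes shIRAK4 replicate 2 was the lowest of the 4 arrays. SERTAD2, a transcription cofactor, fell by 0.95 ± 0.18 (adjusted p = 0.0186). LAMB1, the laminin beta 1 chain, fell by 0.95 ± 0.21 (adjusted p = 0.0392), KIF3B, a kinesin-2 motor subunit, by 0.94 ± 0.20 (adjusted p = 0.0334) and E2F5, a repressive E2F factor, by 0.93 ± 0.18 (adjusted p = 0.0177). Without shIRAK4 replicate 2 these 4 had adjusted p of 0.147, 0.219, 0.171 and 0.128, and the difference of KIF3B was then -0.46. Without shIRAK1 replicate 1 they had 0.0706, 0.0619, 0.0899 and 0.0656. Without shIRAK1 replicate 2 LAMB1 had 0.203 and KIF3B 0.107. PDGFC, a platelet-derived growth factor, fell by 0.78 ± 0.17 (adjusted p = 0.0334, and 0.0555 to 0.172 without shIRAK4 replicate 1 or either shIRAK1 array). ABCG2, a drug efflux pump, fell by 0.76 ± 0.13 (adjusted p = 0.00748, and 0.0667 without shIRAK4 replicate 2), with 5.85 and 5.40 in shIRAK4 cells against 6.40 and 6.36 in shIRAK1 cells.

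**Figure D3:**
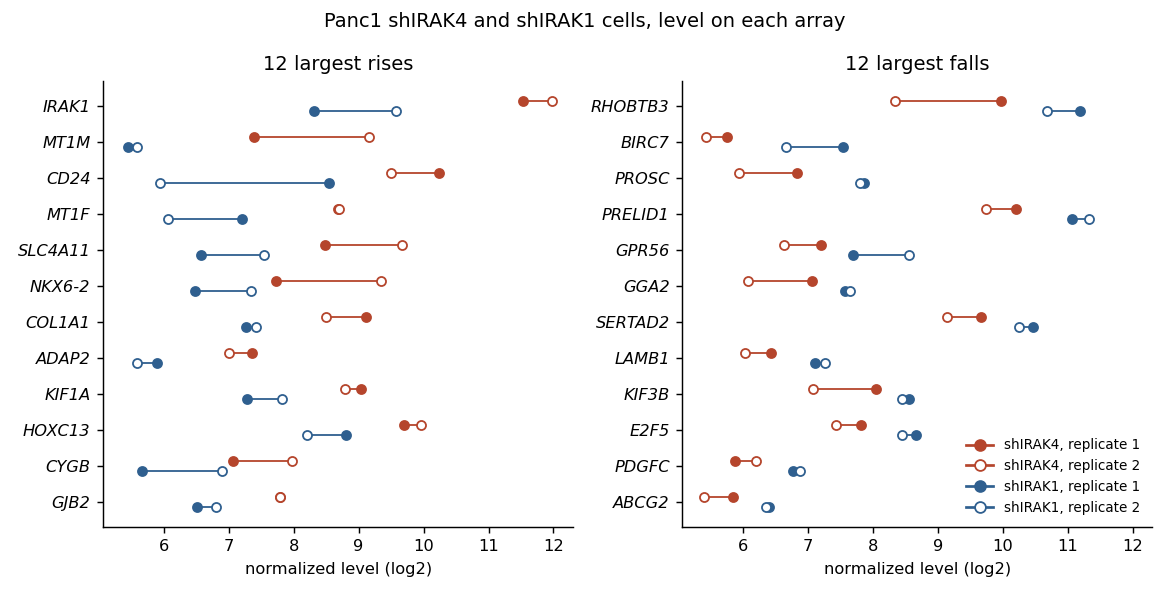
Log2 level on each array for the 12 largest rises (left) and 12 largest falls (right), with shIRAK4 above shIRAK1 in each row, filled circles for replicate 1 and open circles for replicate 2. No row overlaps between groups, which was a condition for naming, and RHOBTB3, MT1M and CD24 show the widest gaps between arrays of a group.

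Metallothioneins are small cysteine-rich proteins that hold zinc and copper. Their list also holds SLC30A1, a zinc exporter also induced through the zinc sensor MTF1. Of 8 tested members 2 were higher in shIRAK4 cells, against 0.674% of all genes, and none lower. One of these is MT1M, which entered the test through shIRAK4 cells alone, and the median difference was 0.61, against 0.0005 over all genes. All 7 metallothioneins had a positive difference, and SLC30A1 had -0.47. MT1F had 8.68 and 8.70 in shIRAK4 cells, against 7.21 and 6.06 in shIRAK1 cells. The shIRAK4 values were tight and those of shIRAK1 spread (difference 2.05 ± 0.40, adjusted p = 0.0186, and 0.19 without shIRAK1 replicate 2 and 0.0829 without shIRAK4 replicate 2). shIRAK1+4 cells had 8.67 and 8.81, level with shIRAK4 cells, and scramble cells had 7.94 and 7.72. MT2A, the most widely expressed metallothionein, had 13.99 and 14.28 in shIRAK4 cells, against 13.45 and 13.53 in shIRAK1 cells (difference 0.64 ± 0.28, adjusted p = 0.373). MT1X had 11.20 and 11.44 in shIRAK4 cells, against 10.79 and 10.79 in shIRAK1 cells (difference 0.53 ± 0.48, adjusted p = 0.739). For 7 of the 8 genes the difference between the hairpins, in either direction, was larger than the gap between the arrays of either group, while over all genes the gap was the larger in 77%. These 7 include SLC30A1, which went the other way, and MT1M. The exception was MT1G, with a difference of 0.66 and levels of 8.16 and 8.97 in shIRAK1 cells. Members of this family are close in sequence, and the array may not separate them.

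Promoter sequences of the family are shown because metallothionein genes share the metal response element, bound by MTF1. The core letters TGCNCNC were searched on both strands of 300 bases around the start (250 before, 50 after), from RefSeq on GRCh38.p14, and matches are in capitals. The table used holds MT1X, MT2A and MT1H, but not MT1F or MT1M. MT1H was detected on none of the 4 arrays, and its sequence is not printed. MT1X lies at chr16:56682220-56682519 and MT2A at chr16:56608334-56608633, both on the plus strand.
MT1X: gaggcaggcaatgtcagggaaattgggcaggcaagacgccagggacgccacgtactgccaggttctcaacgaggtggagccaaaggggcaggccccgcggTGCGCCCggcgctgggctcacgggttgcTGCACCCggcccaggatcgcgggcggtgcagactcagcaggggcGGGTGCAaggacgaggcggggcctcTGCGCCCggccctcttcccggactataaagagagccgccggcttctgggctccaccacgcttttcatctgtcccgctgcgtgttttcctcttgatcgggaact
MT2A: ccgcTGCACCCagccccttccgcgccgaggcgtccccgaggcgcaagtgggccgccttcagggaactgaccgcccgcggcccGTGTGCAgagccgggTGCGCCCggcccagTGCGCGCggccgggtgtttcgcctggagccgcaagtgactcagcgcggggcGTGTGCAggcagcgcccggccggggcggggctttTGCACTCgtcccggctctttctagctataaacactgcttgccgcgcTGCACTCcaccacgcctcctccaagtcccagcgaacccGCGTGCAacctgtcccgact
MT1X held 4 matches, and MT2A and the undetected MT1H 8 each, none overlapping. At least 1 match occurred in 55.9% of the 35116 promoters of the table, at least 4 in 2.94% and at least 8 in 0.0712%. The motif was chosen with the values known, and the letters describe the window only.

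No gene of the receptor and kinase layers besides the targets passed the test. Over all genes only 1.04% passed, so 0 calls in lists this short is no result about these layers. Of 7 tested IL-1 and Toll-like receptor, ligand and adaptor genes none passed in either direction, with a median difference of 0.16. In that list 6 differences were positive and 3 had an unadjusted p under 0.05, as had 1250 of 10232 genes over all. TOLLIP, an adaptor that restrains IRAK1, was higher on both shIRAK4 arrays than on either shIRAK1 array (difference 0.67 ± 0.17, adjusted p = 0.0797). MYD88, the adaptor that binds IRAK4, differed by 0.09 ± 0.18. Of 9 tested genes of the IRAK, TRAF6 and IKK module besides the targets none passed, with a median of 0.12. IRAK2, a kinase that can stand in for IRAK1, had 9.15 and 8.51 in shIRAK4 cells, against 9.37 and 8.63 in shIRAK1 cells, and its replicate gap exceeded the difference of -0.17 ± 0.31. IRAK3, the inhibitory member, differed by 0.13 ± 0.16.

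Among NF-kB subunits and feedback genes 1 of 13 passed, against 1.04% of all tested genes. BIRC3, the ubiquitin ligase cIAP2 and an NF-kB target, had 9.97 and 9.84 in shIRAK4 cells, against 9.41 and 8.81 in shIRAK1 cells. The groups did not overlap, and scramble cells stood above both with 10.62 and 10.58. BIRC3 was higher in shIRAK4 cells by 0.80 ± 0.17 (adjusted p = 0.0303), and the call was lost without shIRAK1 replicate 2 (0.288, difference 0.50), shIRAK4 replicate 2 (0.0753) and shIRAK4 replicate 1 (0.0704). NFKBIA, the inhibitor IkB-alpha, had 12.08 and 11.38 in shIRAK4 cells, against 11.85 and 10.94 in shIRAK1 cells (difference 0.33 ± 0.25, adjusted p = 0.672). TNFAIP3, the deubiquitinase A20, had 6.27 and 5.91 in shIRAK4 cells, against 5.96 and 5.56 in shIRAK1 cells (difference 0.34 ± 0.35, adjusted p = 0.786). Both inhibitors were higher on replicate 1 of each group, and their groups overlapped.

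The promoters of these 3 NF-kB targets are printed for comparison, with matches to a form of the kB site (GGG, any 2 bases, TTTCC) on either strand in capitals. They come from RefSeq on GRCh38.p14 with the same window, at chr11:102317234-102317533 (BIRC3, plus strand), chr14:35404700-35404999 (NFKBIA, minus strand) and chr6:137867009-137867308 (TNFAIP3, plus strand).
BIRC3: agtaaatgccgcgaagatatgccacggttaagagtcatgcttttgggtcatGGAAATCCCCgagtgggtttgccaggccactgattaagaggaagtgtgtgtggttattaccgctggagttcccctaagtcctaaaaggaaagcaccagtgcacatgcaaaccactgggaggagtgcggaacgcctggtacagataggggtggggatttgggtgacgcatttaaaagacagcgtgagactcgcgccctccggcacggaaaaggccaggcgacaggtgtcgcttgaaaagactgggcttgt
NFKBIA: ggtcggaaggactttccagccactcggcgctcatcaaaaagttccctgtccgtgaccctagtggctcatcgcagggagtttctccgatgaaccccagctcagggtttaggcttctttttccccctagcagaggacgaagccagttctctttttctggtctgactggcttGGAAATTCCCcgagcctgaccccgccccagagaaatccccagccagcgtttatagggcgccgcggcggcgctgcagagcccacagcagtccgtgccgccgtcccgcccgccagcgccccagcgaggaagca
TNFAIP3: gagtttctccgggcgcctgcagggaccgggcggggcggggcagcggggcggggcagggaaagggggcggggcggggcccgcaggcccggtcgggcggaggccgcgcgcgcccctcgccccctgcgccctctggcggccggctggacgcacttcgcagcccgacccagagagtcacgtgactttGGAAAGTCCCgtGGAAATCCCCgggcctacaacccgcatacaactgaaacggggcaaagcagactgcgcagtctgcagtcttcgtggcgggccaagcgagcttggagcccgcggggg
BIRC3 and NFKBIA held 1 match each and TNFAIP3 held 2, none overlapping, and 1.91% of the 35116 promoters held at least 1. The gene that passed the test and those that did not share the motif.

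Chemokines are a secreted output of the pathway. Of 13 tested inflammatory cytokines and chemokines 0 passed limma's test and 0 had an unadjusted p under 0.05, with a median of 0.07. Over all genes 1.04% passed and 1250 of 10232 had such an unadjusted p. In 12 of 13 the gap between the arrays of a group exceeded the difference between the hairpins, as it did in 77% of all genes. CCL2, which attracts monocytes, had 12.26 and 10.48 in shIRAK4 cells, against 11.60 and 11.15 in shIRAK1 cells. CXCL1, a neutrophil attractant, had 8.77 and 6.62 in shIRAK4 cells, against 6.80 and 8.46 in shIRAK1 cells. CCL5, which attracts T cells, had 10.89 and 8.35 in shIRAK4 cells, against 10.86 and 6.61 in shIRAK1 cells. Their ranges overlapped, so a difference between the hairpins was not detectable at this spread.

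The remaining lists, here and below, held few genes that passed, beside a share of 1.04% over all tested genes. Among 21 cholesterol synthesis and uptake genes DHCR7, the last enzyme of the pathway, was higher in shIRAK4 cells, with 8.28 and 8.42 against 7.51 and 6.96 in shIRAK1 cells (difference 1.11 ± 0.22, adjusted p = 0.0186, and 0.174 without shIRAK1 replicate 2 and 0.0996 without shIRAK4 replicate 2). In that list 18 of 21 differences were positive and 9 had an unadjusted p under 0.05, with a median of 0.28. SQLE, which oxidises squalene, differed by 0.69 ± 0.20 (adjusted p = 0.117). Scramble cells had more DHCR7 than either group, with 9.64 and 9.81. TP53I3, a p53-induced oxidoreductase, was the 1 of 17 p53 targets that passed (0.67 ± 0.14, adjusted p = 0.0334, and 0.156 without shIRAK4 replicate 2 and 0.256 without shIRAK1 replicate 2).

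Epithelial genes gave 2 rows of 1 gene. EPCAM, an epithelial adhesion molecule, had 7.95 and 7.94 in shIRAK4 cells, against 7.22 and 6.92 in shIRAK1 cells (difference 0.88 ± 0.16, adjusted p = 0.0154, and 0.123 without shIRAK1 replicate 2 and 0.0603 without shIRAK4 replicate 2). A second row under its older name TACSTD1 differed by 0.79 ± 0.16 (adjusted p = 0.0213, and 0.134 without shIRAK1 replicate 2 and 0.0721 without shIRAK4 replicate 1). The other 12 tested epithelial adhesion rows did not pass, and shIRAK1+4 cells had the highest EPCAM with 8.91 and 9.17. KRT86, a hair keratin, was the 1 of 9 keratins that passed (0.71 ± 0.15, adjusted p = 0.0248, and 0.0546 to 0.174 without either replicate 2 or shIRAK1 replicate 1). The ductal keratins KRT19 (12.75 and 12.27 in shIRAK4 cells, against 12.60 and 12.37 in shIRAK1 cells) and KRT8 were abundant on all 4 arrays, and the ductal marker CFTR was detected on none.

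Collagens and matrix glycoproteins moved both ways, with COL1A1 higher and LAMB1 lower among 15 tested. LAMC1, the laminin gamma 1 chain, had 9.67 and 8.84 in shIRAK4 cells, against 10.23 and 10.14 in shIRAK1 cells (difference -0.93 ± 0.24, adjusted p = 0.0793). COL1A1 is also a fibroblast marker, so the list of 13 such markers was read beside it. Its summed linear level was 1069 and 866 in shIRAK4 cells, against 705 and 694 in shIRAK1 cells, and without COL1A1 it was 515 and 504 against 550 and 521. The other defining markers DCN, LUM, PDGFRA, PDGFRB, FAP and COL3A1 were detected on no array, so only COL1A1 of this list rose. Of 15 immune markers only CD68 was tested, of 9 endothelial markers ENG and ESAM, and of 9 acinar and endocrine markers none, and no gene of these lists passed.

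Cell cycle lists leaned lower in shIRAK4 cells without a gene passing. Of 38 DNA replication and G1/S genes 0 passed limma's test, 12 had an unadjusted p under 0.05 and 4 differences were positive, with a median of -0.31. Of 46 mitosis genes 0 passed, 15 had an unadjusted p under 0.05 and 5 were positive, with a median of -0.27. Over all genes 1250 of 10232 had an unadjusted p under 0.05. The replicate gap exceeded the difference in 23 of 38 replication genes and 36 of 46 mitosis genes, against 77% of all genes. In shIRAK1 cells replicate 1 minus replicate 2 had a median of -0.22 over the replication genes and -0.34 over the mitosis genes. CCNA2, cyclin A2, had 9.16 and 9.43 in shIRAK4 cells, against 9.82 and 10.04 in shIRAK1 cells (difference -0.63 ± 0.15, adjusted p = 0.0639). Heat shock chaperones had 2 of 21 positive differences (median -0.25), NRF2 targets 3 of 18 (median -0.26) and hypoxia and glycolysis genes 5 of 21 (median -0.28), and none passed. All 21 hypoxia and glycolysis genes were higher on shIRAK4 replicate 1 than on shIRAK4 replicate 2 (median gap 0.88), and the replicate gap exceeded the difference in 20 of 21. Ribosomal proteins and respiratory chain genes stayed near 0, with medians of -0.01 (47 genes) and 0.03 (40 genes).

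The shIRAK1+4 cells, which carry both hairpins, were set beside the called genes, on arrays outside the contrast. For the 37 genes lower in shIRAK4 cells the shIRAK1+4 mean lay nearer to shIRAK4 in 34 and nearer to shIRAK1 in 3, and it went beyond the shIRAK4 mean in 24. For the 69 higher genes it lay nearer to shIRAK4 in 36 and nearer to shIRAK1 in 33. The same share over all tested genes was not counted. These counts, and those of scramble and DMSO-treated cells below, are therefore a description of the called genes only. PRELID1 at 9.46 and 9.58 and PROSC at 5.99 and 6.12 in shIRAK1+4 cells lay with shIRAK4, and COL1A1 at 6.95 and 7.28 lay with shIRAK1. These shares moved with single arrays. Without shIRAK4 replicate 2, the array most like shIRAK1+4, 12 genes were lower and 33.3% of them had shIRAK1+4 nearer to shIRAK4, and for higher genes the share was 29.3%, against 52.2% with all arrays. Without replicate 2 of both groups 17 genes were lower and the share was 82.4%. Without shIRAK1 replicate 1 the share for higher genes was 76.5%.

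Scramble cells lay nearer to shIRAK1 for most genes that were higher in shIRAK4 cells (50 of 69), and for lower genes they split 19 nearer to shIRAK4 and 18 nearer to shIRAK1. DMSO-treated cells lay nearer to shIRAK1 in 45 of 69 higher genes and 25 of 37 lower genes.

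**Figure D4:**
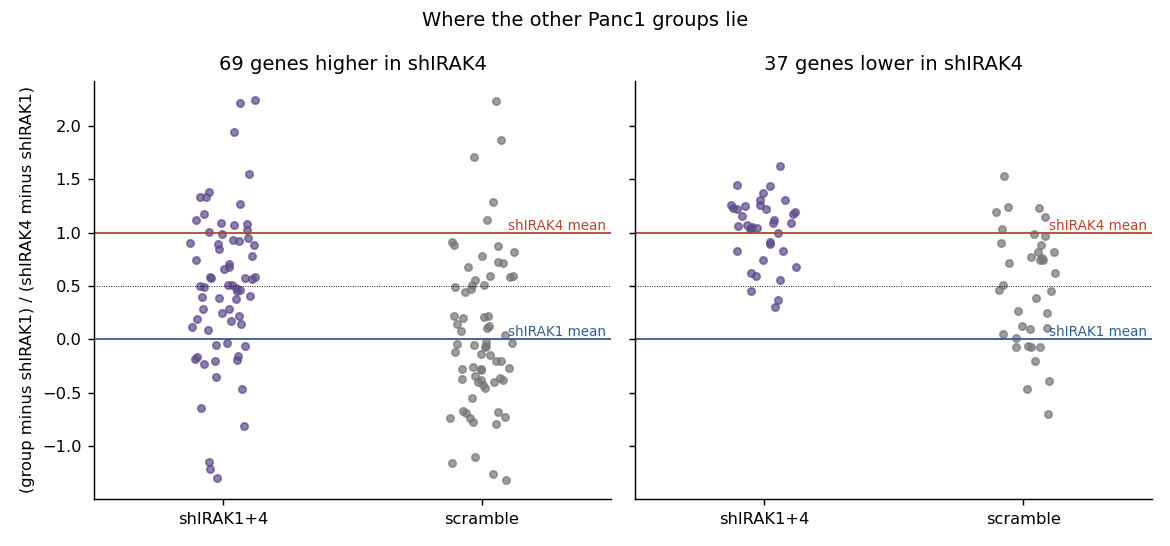
Mean of shIRAK1+4 and of scramble cells on a scale where 1 is the shIRAK4 mean and 0 the shIRAK1 mean, 1 point a gene, for the 69 genes higher (left) and the 37 genes lower in shIRAK4 cells (right). In the right panel 34 of 37 shIRAK1+4 points lie above the dotted midline.

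Of the genes called in Panc1, 8 were also called in Capan1 cells with the same hairpins. There 815 of 10926 tested genes passed (7.46%), 420 higher (3.84%) and 395 lower (3.62%) in shIRAK4 cells. Of the 106 genes called in Panc1, 65 were tested in Capan1, 46 had the same sign (70.8%, against 53.6% of 9022 genes tested in both lines) and 8 passed in both with the same sign. Only the 65 tested genes could pass in both lines. Over all calls, untested genes included, those 8 are 7.55% of the Panc1 calls and 0.982% of the Capan1 calls. They include MT1F, BIRC3 and LAMB1. MT1F differed by 2.13 in Capan1 (adjusted p = 0.00457), with 10.78 and 10.90 in shIRAK4 cells, against 9.23 and 8.20 in shIRAK1 cells. BIRC3 differed there by 0.71 (adjusted p = 0.0183) and LAMB1 by -0.95 (adjusted p = 0.012). The difference between the lines was -0.08 ± 0.57 for MT1F, 0.09 ± 0.24 for BIRC3 and 0.01 ± 0.30 for LAMB1 (Panc1 minus Capan1).

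**Figure D5:**
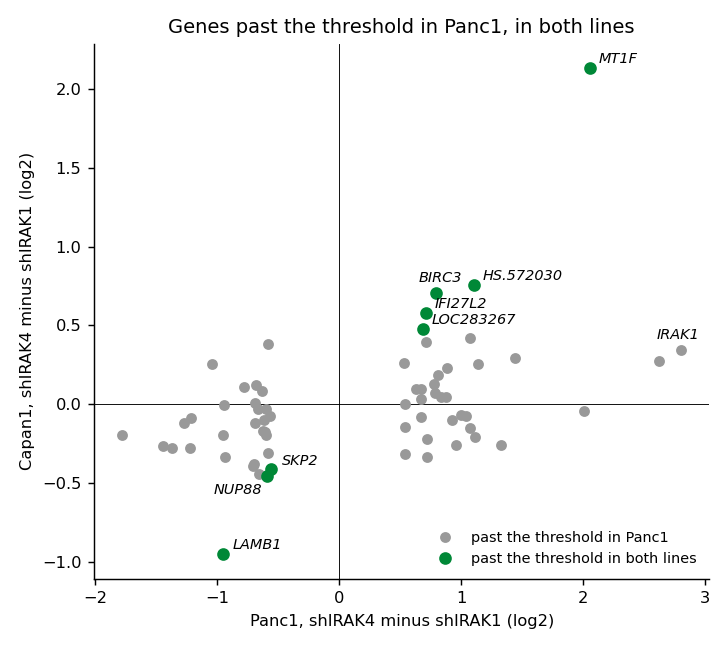
Difference between shIRAK4 and shIRAK1 cells in Panc1 (x axis) and Capan1 (y axis), log2, for the 65 genes called in Panc1 and tested in Capan1. The 8 genes past the threshold in both lines are named and lie in the upper right or lower left, and IRAK1 lies far to the right with 0.34 in Capan1.

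The difference itself differed between the lines for 190 of 12136 genes (1.57%), 97 more positive in Panc1 (0.799%) and 93 more negative (0.766%), and 33 of the 106 Panc1 genes were among them. The 106 were called on the Panc1 difference, which is part of this term. Their share is therefore raised by the selection and is no support. IRAK1 was among the 33. In Capan1 it had 9.64 and 9.56 in shIRAK4 cells, against 9.55 and 8.97 in shIRAK1 cells (difference 0.34, adjusted p = 0.533, interaction 2.47 ± 0.41, adjusted p = 0.00718). IRAK4 was below detection on all 4 of those Capan1 arrays. Neither target separated the Capan1 libraries, and directions in that line follow the labels of the libraries. CCL2 gave the most negative term, -5.70 ± 0.51 (adjusted p = 3.56e-05), with 12.04 and 11.51 in Capan1 shIRAK4 cells, against 6.17 and 5.99 in Capan1 shIRAK1 cells. Of 24 cytokine genes tested in Capan1 15 were higher and 1 lower in shIRAK4 cells, against 3.84% and 3.62% of all genes tested there. In Panc1 0 of 13 passed. The filter kept different genes of this list in the 2 lines, and genes can enter through the group where they are high. These counts are a description, and a difference of the list between the lines was not tested.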

How the data were processed

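Levels were measured on 1-colour Illumina expression arrays, 24 in all, with 2 in each of 12 groups. The deposited table gives, for each gene and array, a non-normalized log2 signal and a detection p-value that the authors exported at gene level. The submitters' processing notes name GenomeStudio 2011, and further steps are not given in the sources used here. Detection p-values of 7404 rows that behave as several probes averaged are less reliable: 39.7% of their values over log2 8 were not detected, against 0 of 97593 in the other rows.

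The signal was put on a linear scale, corrected by normexp with an offset of 16, quantile normalized over 24 arrays and returned to log2. limma 3.58.1 (R 4.3.3) fitted 12 group means, so all groups shared one estimate of the spread, with Benjamini-Hochberg adjustment over all tested genes and a threshold of 0.05. Every adjusted p in the text comes from limma. The method was tested on simulated data, where most false calls were low genes that passed the filter through a single group. "At least" folds set a group against the detection limit of the other.

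Named were IRAK1, IRAK4, the 12 largest rises and falls past the threshold with a single gene symbol and groups that did not overlap, up to 4 called members of each list, and the 4 largest interaction terms each way. Members and lists were chosen with earlier results of these data known. Alternatives changed scaling, background, filter, arrays in the fit, array weights, the smallest fold, the replicate block and single arrays.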

Additional observations from a re-analysis of the deposited data

Results flagged for a closer look

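The shIRAK4 against shIRAK1 difference was unlike in Panc1 and Capan1 for 8 named genes, by limma's test of the difference between the lines (Panc1 minus Capan1, log2). The most positive terms were 2.74 for CYR61 (adjusted p = 0.0222), 2.73 for MT1M (0.00783), 2.55 for CALB2 (0.005) and 2.47 for IRAK1 (0.00718). MT1M entered this test through Panc1 shIRAK4 cells alone, where it was high, and was not detected in either Capan1 group. Its term is therefore a description and its p no support. CYR61, the matricellular protein CCN1, had 11.46 and 11.99 in Panc1 shIRAK4 cells, against 10.99 and 10.82 in Panc1 shIRAK1 cells. In Capan1 it had 6.46 and 7.13 in shIRAK4 cells, against 9.43 and 7.996 in shIRAK1 cells. The Panc1 difference of 0.82 ± 0.38 did not pass (adjusted p = 0.403), and the Capan1 difference of -1.92 did (adjusted p = 0.00683). CALB2, the calcium-binding protein calretinin, was not tested in Panc1 and was lower in Capan1 shIRAK4 cells. It entered through Capan1 cells alone, so its term is likewise a description and its p no support.

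The most negative terms were -5.70 for CCL2 (adjusted p = 3.56e-05), -4.61 for S100A8 (0.014), -3.91 for HLA-DRA (0.00225) and -3.85 for HLA-DMB (0.0127). S100A8, a calcium-binding inflammatory protein, had 9.80 and 11.48 in Capan1 shIRAK4 cells, against 5.84 and 6.08 in Capan1 shIRAK1 cells, and was not detected on the Panc1 arrays of the contrast. It entered through Capan1 cells alone, so its term describes the Capan1 difference and its p is no support. HLA-DRA and HLA-DMB belong to antigen presentation by HLA class II, and both were higher in Capan1 shIRAK4 cells.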

How the results depend on the processing

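All 31 named Panc1 genes past the threshold kept their sign under every alternative run, and 0 kept the call under every one. Their groups did not overlap, so changes to the filter, arrays, weights, fold or block could not turn a sign. Only changes of scaling, background, offset or the values used could have done so. In place of 106 calls there were 11 under median scaling (11 of them among the 106), 31 with that scaling over genes detected on all arrays (31), 44 with the series matrix values (43), 188 with background from all rows (77), 62 without background correction (60), 48 with the arrays of the line (37), 0 with its hairpin and scramble arrays, 0 with the 4 arrays, 46 without scramble (46), 27 with array weights (27), 4 for a fold of at least 1.5 (4) and 65 on one-probe rows (65). Leaving out single arrays gave 70 to 309 calls (149 higher and 160 lower without shIRAK4 replicate 1), leaving out replicate 1 of both groups 286 and replicate 2 of both groups 66. Higher genes made up 65.1% of the calls, 81.8% and 77.4% under the median scalings. The replicate number is shared by 2 pairs only, and replicate differences correlated at 0.486 between the groups. With the replicate block 115 genes passed, 94 of them among the 106. That block is 1 term a line, common to all groups of the line. It therefore cannot take out a replicate gap shared by these 2 groups only.

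IRAK1, at 2.81 in both fits, had adjusted p of 0.0924 with the hairpin and scramble arrays of the line and 0.891 with the 4 arrays. IRAK4 was -0.61 and -0.49 under the median scalings, -0.53 with quantile normalization within the line, -0.39 with offset 50, -0.61 to -0.68 without single arrays that ended the call, -0.72 at the most without shIRAK1 replicate 1, -0.70 without replicate 1 of both groups and -0.63 without replicate 2 of both. It was -0.66 with the arrays of the line, its hairpin and scramble arrays, the 4 arrays, no scramble, a fold of at least 1.5 and array weights, and did not pass in any of these. It passed at -1.64 with the series matrix values, -1.51 with background from the middle of the controls, -1.11 without background correction and -0.07 with background from all rows.

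The share of higher genes with shIRAK1+4 nearer to shIRAK4 (52.2%) was 22.2% under median scaling, 36.4% with array weights, 25% for a fold of at least 1.5, 28.6% without replicate 2 of both groups and 29.3% to 76.5% without single arrays. The share of lower genes (91.9%) was 100% under both median scalings and array weights, on 2, 7 and 5 genes, 77.6% without replicate 1 of both groups and 33.3% to 91.8% without single arrays.

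Capan1 had 815 calls, 116 under median scaling, 201 with its own arrays, 8 with its hairpin and scramble arrays, 5 with the 4 arrays, 272 with array weights, 57 for a fold of at least 1.5 and 212 to 1016 without single arrays. The difference between the lines had 190 calls, 10 and 99 under the median scalings, 82 with the series matrix values, 118 without the detection filter, 49 with detection on every array, 25 with hairpin and scramble arrays, 9 with the arrays of the contrast, 79 without scramble, 89 with array weights, 12 for a fold of at least 1.5, 122 on one-probe rows and 81 to 475 without single arrays. Except where fewer genes or arrays entered, the cause was not tested. The scaling over detected genes and the fits without both arrays of a replicate number were chosen after seeing the data. Signal near the detection limit restricts IRAK4.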

Other observations

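Genes of the HOXC cluster were read after HOXC13 had been seen to pass. HOTAIR, a long non-coding RNA transcribed from that cluster, had 7.19 and 7.11 in shIRAK4 cells, against 6.46 and 6.09 in shIRAK1 cells, and scramble cells had 6.01 and 5.91. The difference was 0.87 ± 0.12 (adjusted p = 0.00156). The neighbours HOXC8 (0.70, adjusted p = 0.17), HOXC11 (0.45, adjusted p = 0.187), HOXC10 (0.29, adjusted p = 0.364), HOXC9 (0.16, adjusted p = 0.813) and HOXC6 (0.16, adjusted p = 0.728) did not pass. HOXC11 and HOXC6 passed the filter through shIRAK4 cells alone, where they were higher.

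GAGE genes, cancer-testis antigens in near-identical copies that the array may not separate, had their highest values on shIRAK1 replicate 1 in the rows named here, and were detected on both shIRAK1 arrays. GAGE2B had 5.74 and 5.86 in shIRAK4 cells, against 7.84 and 6.30 in shIRAK1 cells (difference -1.27 ± 0.29, adjusted p = 0.048). GAGE12G had 5.53 and 6.10 in shIRAK4 cells, against 8.01 and 6.20 in shIRAK1 cells (difference -1.29 ± 0.34, adjusted p = 0.0818). GAGE12G passed the filter through shIRAK1 cells alone, where it was higher, so its p is no support. These genes were chosen after their values were seen.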
